A study of Mus musculus with 5 samples.

Results

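The oxidative phosphorylation genes described here encode the nuclear-coded subunits and assembly factors of the respiratory chain. They were chosen by symbol, as nuclear protein-coding genes of GENCODE release M21 whose names begin with Nduf, Uqcr, Atp5 or Cox followed by a digit, together with Sdha, Sdhb, Sdhc, Sdhd, Cycs and Cyc1. The rule found 104 genes among 21911 nuclear protein-coding genes. Atp5o has 2 gene records with that symbol, which were joined. By role, 76 of the 104 genes code for structural subunits of complexes I to V, 1 (Cycs) for cytochrome c, 19 for assembly or accessory factors and 8 for isoforms known to be restricted to a few tissues or conditions.

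The respiratory chain lies in the inner mitochondrial membrane. Complexes I and II feed electrons from NADH and succinate to ubiquinone, complex III passes them to cytochrome c, complex IV hands them to oxygen, and complex V, the ATP synthase, uses the resulting proton gradient to make ATP. Most subunits are coded in the nucleus and are made in nearly every cell. Gfi1 is a zinc finger repressor whose SNAG domain recruits Lsd1, a histone demethylase, together with CoREST.

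The study asked where Gfi1 and Lsd1 bind in MG tumors, a mouse model of medulloblastoma. Prominin1+ lineage-negative stem cells from the cerebella of neonatal C57BL/6 mice received retroviral Myc and Gfi1 and were transplanted into NSG mice, which lack T, B and NK cells. Both factors were immunoprecipitated from the same 2 tumors, numbered 39 (replicate 1) and 41 (replicate 2), with rabbit polyclonal antibodies, and the 4 libraries were sequenced. All groups therefore carry Myc and Gfi1, and no tumor without Gfi1 or normal cerebellum was profiled in these lists. The input control was a pool of MGB tumors, made with Myc and Gfi1b, whose reads are not used here. The peak lists carry no expression, so that the tumor identity of the samples could not be checked against marker genes. In bulk chromatin, binding in fewer cells and weaker binding in each cell cannot be told apart.

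The lists held 36836 and 25078 Gfi1 peaks and 30367 and 33213 Lsd1 peaks in tumors 39 and 41. They give a position and a score for each peak, with no read counts, so that the depth behind a single peak is unknown and no counting interval was computed. The score was turned into a percentile within its own list, where 100 is the strongest peak. In the Gfi1 list of tumor 39, 805 peaks share the score 3100 and stand together at percentile 98.6. A gene had a promoter peak when a peak came within 1000 bp of any of its transcription start sites (TSSs), and its peak with the highest score was read. With 2 tumors a factor, an exact two-sided permutation test cannot go below p = 0.333, so factors and tumors were compared without a test, and the error given is the SD over the tumors (n = 2).

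Promoter peaks of both factors were found at nearly all of these genes. In each of the 4 libraries 101 of the 104 genes had a peak, a share of 97.1% in every library (SD 0, n = 2 for each factor). The shares over all protein-coding genes were 65.0% and 54.2% for Gfi1 in tumors 39 and 41, and 58.5% and 61.7% for Lsd1. All 101 genes had a peak in all 4 libraries, against 53.1% of all protein-coding genes, and 0 of the 104 had a peak in some libraries only, a state held by 2906 of the 21911 genes. All 77 structural and cytochrome c genes and all 19 assembly and accessory genes were among the 101.

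The 3 genes without a peak were Cox6a2, Cox7b2 and Cox8c, isoforms of complex IV subunits that are made mainly in heart and skeletal muscle (Cox6a2) or in testis (Cox7b2 and Cox8c). The nearest Gfi1 or Lsd1 peak lay 29.9 to 30.5 kb from a Cox6a2 TSS and 19.5 to 19.7 kb from a Cox8c TSS. For Cox7b2 it lay 108 to 109 kb away in 3 libraries and 7.87 kb away for Gfi1 in tumor 39. The highest-scoring peak of a gene covered a TSS in 98 to 101 of the 101 genes with peaks, and the farthest Gfi1 peaks were those of Ndufa4l2, at 705 and 756 bp in tumors 39 and 41. The farthest Lsd1 peak lay 538 bp from a TSS, at Atp5b. The values nearest to the limit of 1000 bp were thus 756 bp inside it and 7.87 kb outside it.

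**Figure D1:**
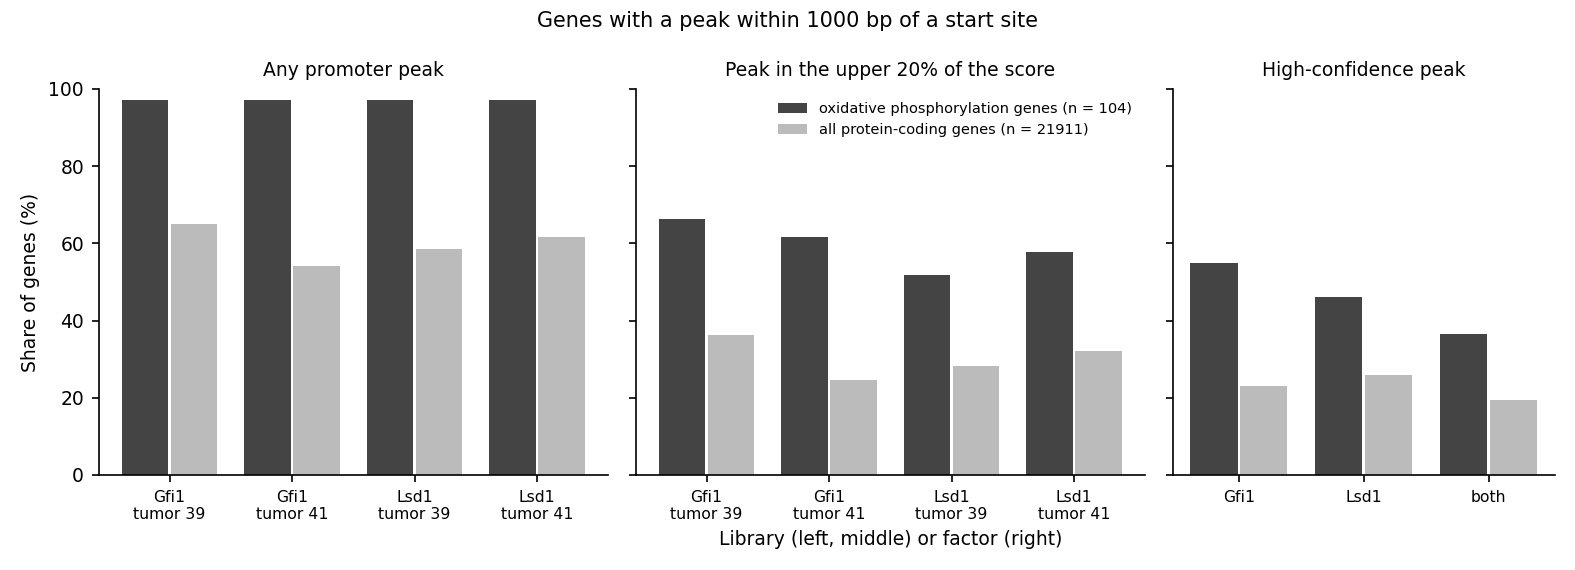
Bars give the share of genes (%) with a Gfi1 or Lsd1 peak within 1000 bp of a TSS, for the 104 oxidative phosphorylation genes (dark) and all 21911 protein-coding genes (light). The left panel counts any peak, the middle panel peaks within the upper 20% of scores in their library, and the right panel high-confidence peaks of Gfi1, Lsd1 or both. The dark bars stand at 97.1% in all 4 libraries on the left and at 54.8%, 46.2% and 36.5% on the right.

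The promoter bases of the 3 genes without a peak are shown first, since they mark where neither factor was listed. Each stretch is the 150 bases before the TSS, read 5′ to 3′ along the gene's strand from the RefSeq GRCm38.p6 genome, the build of mm10. Capitals mark an exact match to a searched motif, here the NRF1 half-site GCGCATGC in Cox8c. NRF1 is a transcription factor known for its sites in respiratory chain promoters. The stretches are chr7:128206388-128206537 (minus strand), chr5:71548206-71548355 (minus strand) and chr12:102899166-102899315 (plus strand).
Cox6a2: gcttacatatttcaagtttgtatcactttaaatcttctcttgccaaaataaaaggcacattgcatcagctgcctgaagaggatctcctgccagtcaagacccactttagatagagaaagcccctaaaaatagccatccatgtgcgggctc
Cox7b2: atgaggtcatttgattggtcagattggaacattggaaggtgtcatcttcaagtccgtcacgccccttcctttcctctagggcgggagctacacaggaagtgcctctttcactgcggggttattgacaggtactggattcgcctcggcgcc
Cox8c: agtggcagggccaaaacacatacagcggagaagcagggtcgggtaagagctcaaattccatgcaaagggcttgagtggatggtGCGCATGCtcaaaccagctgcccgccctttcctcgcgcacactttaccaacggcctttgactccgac

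The stretches of Cox6a2, Cox7b2 and Cox8c hold 1, 7 and 8 CpGs. The NRF1 letters of Cox8c begin at position -67, counted back from the TSS, and neither factor was listed there.

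Strong peaks were also more frequent at these promoters than over all genes. A peak in the upper 20% of its list was found at 69 and 64 of the 104 genes for Gfi1 in tumors 39 and 41, a mean share of 63.9% ± 3.40 (SD, n = 2), against 36.2% and 24.6% of all protein-coding genes. For Lsd1 it was found at 54 and 60 genes, a mean share of 54.8% ± 4.08 (SD, n = 2), against 28.1% and 32.2%. All 4 libraries had such a peak at 38 genes, against 19.9% of all protein-coding genes. In 25 of the 104 genes no library had one, against 13103 of the 21911 protein-coding genes.

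A high-confidence peak was defined after the study's rule, by the upper 20% of each replicate and an overlap of at least 50%. The overlap was taken as a share of the replicate 1 peak and the score in place of enrichment, both of which are choices made here. Such a Gfi1 peak lay at 57 of the 104 genes (54.8%), against 22.9% of all protein-coding genes. A high-confidence Lsd1 peak lay at 48 genes (46.2%), against 25.9%. Both lay at 38 genes, against 19.5%, and neither lay at 37, against 15479 of the 21911 protein-coding genes. Gfi1 alone was high-confidence at 19 genes, against 3.46% of all genes, and Lsd1 alone at 10, against 6.43%.

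The comparison with all genes includes many that had no peak at all. Among the 11637 protein-coding genes with a promoter peak in all 4 libraries, 43.1% had a high-confidence Gfi1 peak and 48.6% a high-confidence Lsd1 peak. For the 101 oxidative phosphorylation genes with peaks the shares were 56.4% and 47.5%, above these genes for Gfi1 and close to them for Lsd1. The median percentile of the 101 peaks was 84.6 and 84.4 for Gfi1 in tumors 39 and 41, a mean of 84.5 ± 0.141 (SD, n = 2), and 81.2 and 82.1 for Lsd1, a mean of 81.7 ± 0.624. Over all genes with a peak in the library the means were 79.9 ± 3.55 and 80.0 ± 1.37, so that the difference was within the sum of the SDs for Lsd1 and above it for Gfi1. When each promoter peak was ranked only among the 11637 genes, the median rank of the 101 was 45.5 and 62.4 for Gfi1 in tumors 39 and 41, and 49.9 and 45.0 for Lsd1. The 101 promoters thus stood near the middle of bound promoters in 3 libraries and above it in the Gfi1 library of tumor 41.

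Their peaks were not wider than those at other promoters. The median widths were 1941 and 2142 bp for Gfi1 in tumors 39 and 41 and 2511 and 2185 bp for Lsd1, with means of 2042 ± 142 bp and 2348 ± 231 bp (SD, n = 2). Over all protein-coding genes with a peak they were 2085, 2185, 2515 and 2379 bp, in the same order. The median peak reached 877 to 1135 bp upstream and 1119 to 1338 bp downstream of the main TSS. Its midpoint lay downstream of the TSS in 61.4% to 71.3% of the genes. At the TSS itself 96.2% to 97.1% of the 104 genes were covered, while 17.3% to 22.1% were covered 2000 bp downstream.

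**Figure D2:**
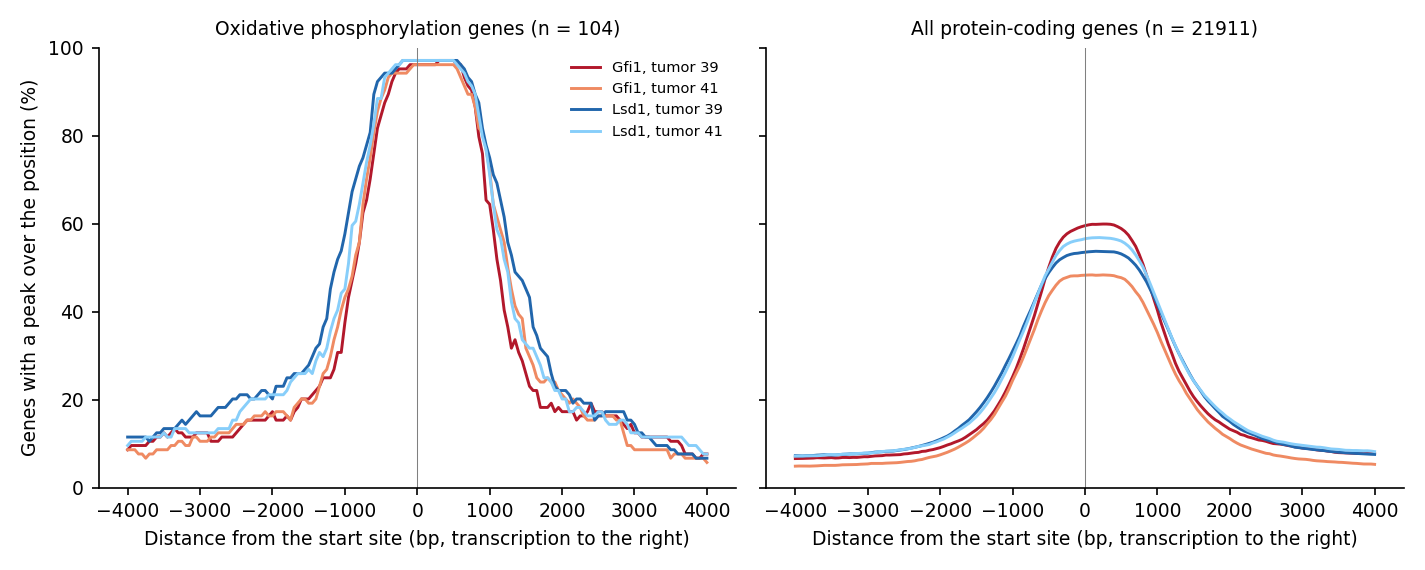
Lines give the share of genes (%) with a peak over each position from 4000 bp upstream to 4000 bp downstream of the main TSS, one line for each of the 4 libraries, for the 104 oxidative phosphorylation genes (left) and all 21911 protein-coding genes (right). On the left the 4 lines reach 96.2% to 97.1% at the TSS, and on the right 48.3% to 59.6%.

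Complex I, the entry point for electrons from NADH, gave 36 structural genes. High-confidence Gfi1 peaks lay at 25 of them (69.4%) and high-confidence Lsd1 peaks at 16 (44.4%), with 14 in common. Over the 11637 protein-coding genes with a peak in all 4 libraries, the shares were 43.1% and 48.6%. The median percentile was 85.4 ± 1.43 (SD, n = 2) for Gfi1 and 80.9 ± 0.763 for Lsd1. The 7 core subunits, which carry the flavin, the iron-sulfur clusters and the NADH site, all had a high-confidence Gfi1 peak, and 5 had one of Lsd1. Among the 29 supernumerary subunits, which surround the core, the counts were 18 and 11.

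The strongest promoters of complex I were Ndufa11 and Ndufa13, both supernumerary. Ndufa11 stood at percentiles 98.6 and 99.6 for Gfi1 in tumors 39 and 41 and at 99.1 and 99.9 for Lsd1. Ndufa13 stood at 98.6, 99.1, 99.0 and 99.2 in that order. In both genes all 4 libraries were high and the factors overlapped. A TSS of another protein-coding gene lay within 1000 bp of an Ndufa11 TSS, so its peaks cannot be assigned to Ndufa11 alone. Ndufs1, the largest core subunit, stood at 95.9 and 96.0 for Gfi1 and at 92.8 and 95.5 for Lsd1, and it shares its promoter region with Eef1b2, a translation elongation factor gene. By the mean over the 4 libraries the lowest structural genes of complex I were the X-linked Ndufa1 and Ndufb11, described with the X chromosome.

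Ndufc2 and Ndufa12, both supernumerary subunits of complex I, differed between the factors in opposite directions. Ndufc2 stood at 81.4 and 87.6 for Gfi1 in tumors 39 and 41 and at 67.0 and 76.2 for Lsd1, so that both Gfi1 values were above both Lsd1 values. Ndufa12 stood at 73.3 and 62.7 for Gfi1 and at 79.1 and 77.2 for Lsd1, the other way round. Their values did not overlap between the factors, and these genes were named as 1 of the 2 largest and 1 of the 2 smallest differences of Gfi1 minus Lsd1.

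The 8 assembly factors of complex I, Ndufaf1 to Ndufaf8, help build the complex and do not stay in it. High-confidence Gfi1 peaks lay at 3 of them (37.5%) and Lsd1 peaks at 5 (62.5%), against 43.1% and 48.6% of the 11637 genes with peaks. The median percentile of the 8 assembly factors was 80.1 ± 2.35 (SD, n = 2) for Gfi1 and 84.8 ± 0.338 for Lsd1. In 3 of them, Ndufaf2, Ndufaf7 and Ndufaf8, both Lsd1 values were above both Gfi1 values, and in 0 of them was it the other way. The shares over the 11637 protein-coding genes with a peak in all 4 libraries were 15.4% and 16.5%. Ndufaf2, Ndufaf7 and Ndufaf8 were picked for naming once their values were known, and each shares its promoter with another gene (Ercc8, Cebpz and Tepsin). Ndufaf3 had the second widest peaks of all 104 genes, at 21014, 7938, 9006 and 11793 bp for Gfi1 in tumors 39 and 41 and Lsd1 in tumors 39 and 41. These peaks covered a TSS of 2 to 4 other protein-coding genes.

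**Figure D3:**
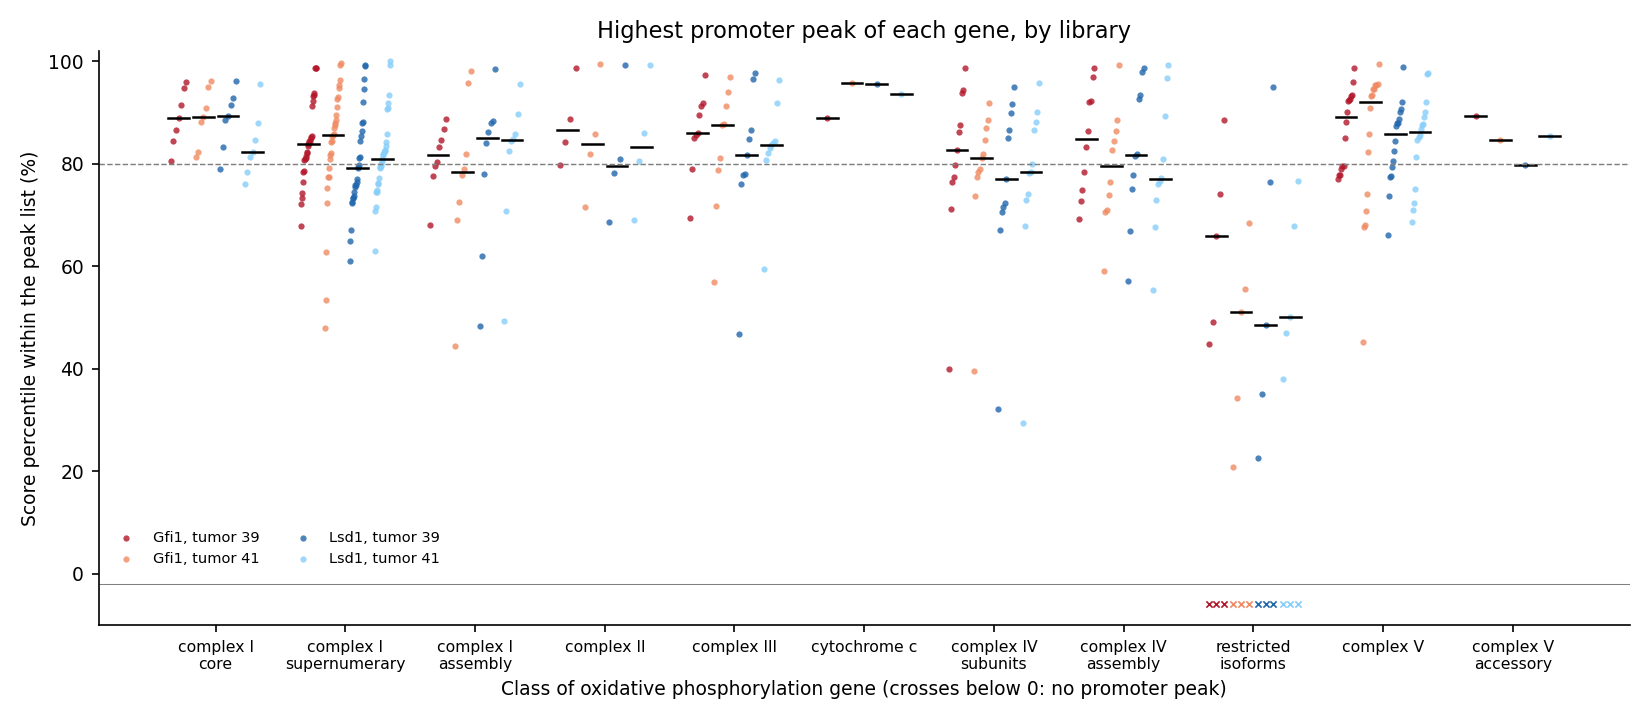
Each point is the percentile (%) of a gene's highest promoter peak within the peak list of its library, by class of gene on the horizontal axis and by library in color, with black bars at the medians, crosses for genes without a peak and a dashed line at percentile 80. The restricted isoforms have medians from 48.5 to 66.0 and hold all 3 genes without a peak, while the other classes with more than 1 gene have medians from 76.9 to 92.0.

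Complex II, which oxidizes succinate and is shared with the TCA cycle, is coded by Sdha, Sdhb, Sdhc and Sdhd alone. Sdhb, the iron-sulfur subunit, had one of the strongest promoters, at percentiles 98.6 and 99.5 for Gfi1 in tumors 39 and 41 and at 99.2 in both for Lsd1, with peaks of 6103 to 8729 bp that covered no TSS of another protein-coding gene. Sdha, the flavoprotein, stood at 88.7 and 85.7 for Gfi1 and at 80.9 and 80.5 for Lsd1. Sdhc, a membrane anchor, stood at 84.2 and 81.9 for Gfi1 and at 78.1 and 86.0 for Lsd1. Sdhd, the other anchor, was the lowest at 79.7, 71.6, 68.6 and 69.0 in the same order. The Gfi1 values were above the Lsd1 values without overlap in Sdha and Sdhd and overlapped them in Sdhb and Sdhc. Sdha, Sdhc and Sdhd each had a TSS of another protein-coding gene within 1000 bp. Their peaks covered such a TSS in all 4 libraries, so that these values cannot be assigned to the Sdh genes alone. High-confidence peaks of both factors lay at Sdha and Sdhb, a Gfi1 peak alone at Sdhc and neither at Sdhd, although all 4 genes had a peak in every library.

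The Sdhb promoter is shown because its 4 values were all at 98.6 or higher and because it holds the letters of the Gfi1 core motif AAATCA, in capitals from position -115. The stretch is chr4:140961053-140961202 (plus strand) and holds 4 CpGs. Atp5b, the catalytic beta subunit of the ATP synthase, also holds these letters, from position -48, in chr10:128083123-128083272 (plus strand).
Sdhb: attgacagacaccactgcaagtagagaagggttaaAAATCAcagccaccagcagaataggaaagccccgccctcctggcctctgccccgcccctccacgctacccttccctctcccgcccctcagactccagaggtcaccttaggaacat
Atp5b: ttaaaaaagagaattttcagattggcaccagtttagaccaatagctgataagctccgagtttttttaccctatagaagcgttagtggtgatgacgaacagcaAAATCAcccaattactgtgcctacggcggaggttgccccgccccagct

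Complex III gave 9 genes, of which 5 had a high-confidence Gfi1 peak (55.6%), 5 an Lsd1 peak (55.6%) and 3 both. Over the 11637 protein-coding genes with peaks in all 4 libraries, the shares were 43.1% for Gfi1 and 48.6% for Lsd1. The median percentile was 86.8 ± 1.11 (SD, n = 2) for Gfi1 and 82.6 ± 1.48 for Lsd1. Uqcrh, the hinge protein that contacts cytochrome c1, stood at 97.3 and 91.2 for Gfi1 in tumors 39 and 41 and at 97.6 and 96.3 for Lsd1. Uqcrq stood at 91.8 and 96.9 for Gfi1 and at 96.4 and 91.9 for Lsd1. These genes were high in all 4 libraries, and their factors overlapped. Uqcr11 stood at 85.1 and 94.0 for Gfi1 and at 84.8 and 84.1 for Lsd1, with peaks of 4908 to 7172 bp. Cyc1, which codes for cytochrome c1, stood at 91.1 and 71.6 for Gfi1 and at 77.9 and 84.4 for Lsd1. The Gfi1 values of Cyc1 were 19.5 percentile points apart and enclosed both Lsd1 values, and neither factor had a high-confidence peak there.

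Cycs, the soluble carrier between complexes III and IV and a trigger of apoptosis once released, stood at 89.0 and 95.7 for Gfi1 in tumors 39 and 41 and at 95.5 and 93.5 for Lsd1. The factors overlapped and both had a high-confidence peak. Its promoter is shown with those of Cox6a1 and Ndufa6 because all 3 hold the NRF1 half-site, in capitals, from positions -91 in Cycs, -139 in Cox6a1 and -52 in Ndufa6. In Cox6a1 a second match on the other strand begins at -137 and overlaps the first, since the letters are nearly their own reverse complement. The stretches are chr6:50566539-50566688 (minus strand), chr5:115348982-115349131 (minus strand) and chr15:82354323-82354472 (minus strand), with 17, 17 and 14 CpGs.
Cycs: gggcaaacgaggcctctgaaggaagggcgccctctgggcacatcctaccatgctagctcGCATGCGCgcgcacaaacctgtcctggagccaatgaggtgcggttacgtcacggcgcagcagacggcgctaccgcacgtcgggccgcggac
Cox6a1: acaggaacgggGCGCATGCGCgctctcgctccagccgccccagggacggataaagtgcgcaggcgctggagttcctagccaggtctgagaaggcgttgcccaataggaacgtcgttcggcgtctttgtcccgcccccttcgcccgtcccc
Ndufa6: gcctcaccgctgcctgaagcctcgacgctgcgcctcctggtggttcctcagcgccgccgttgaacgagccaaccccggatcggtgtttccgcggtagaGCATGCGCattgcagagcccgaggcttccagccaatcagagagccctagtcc

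Ndufa6, a supernumerary subunit of complex I, was picked for its motif once its values were known. It stood at 93.8 and 91.0 for Gfi1 in tumors 39 and 41 and at 76.9 and 85.8 for Lsd1, so that the Gfi1 values were above the Lsd1 values without overlap.

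The 11 structural genes of complex IV, the oxidase, had the lowest median percentiles among the complexes. High-confidence Gfi1 peaks lay at 4 of them, and Lsd1 peaks at the same number, with all 4 in common. The median percentile was 81.9 ± 1.19 (SD, n = 2) for Gfi1 and 77.7 ± 0.890 for Lsd1, below the medians of complexes I, II, III and V for both factors, in each case by more than the sum of the SDs. Cox4i1, a regulatory subunit, stood at 98.6 and 91.8 for Gfi1 in tumors 39 and 41 and at 94.8 and 95.7 for Lsd1, at a promoter shared with Emc8. Cox6a1, whose promoter is shown above, stood at 93.8, 88.5, 89.8 and 90.0 in the same order. Cox5a, another subunit found in nearly all tissues, stood at 94.3, 81.8, 85.0 and 86.5. In these 3 genes the Gfi1 values enclosed both Lsd1 values. At the other end stood the X-linked Cox7b.

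The 10 assembly factors and related genes of complex IV had high-confidence Gfi1 peaks at 5 genes (50%) and Lsd1 peaks at 4 (40%). Over the 11637 genes with peaks the shares were 43.1% and 48.6%. Cox20, a chaperone of the copper-bearing subunit Cox2, was 1 of the 4 genes at or above percentile 95 in all 4 libraries, with Ndufa11, Ndufa13 and Sdhb. It stood at 98.6 and 99.3 for Gfi1 in tumors 39 and 41 and at 97.8 and 96.6 for Lsd1. Cox16 stood at 72.7 and 70.5 for Gfi1 and at 57.2 and 55.2 for Lsd1, a difference of the means of 15.4 percentile points. The SDs were 1.51 and 1.36 (n = 2). Cox15, which makes heme A, stood at 91.9 and 73.9 for Gfi1 and at 92.6 and 80.9 for Lsd1, so that it was lower in tumor 41 for both factors.

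The Cox20 promoter is shown as the strong promoter of an assembly factor and holds the ETS letters CCGGAAG, here on the other strand and in capitals from position -80. ETS factors include GABPA, a known regulator of respiratory chain genes. The stretch is chr1:178318980-178319129 (plus strand) and holds 13 CpGs.
Cox20: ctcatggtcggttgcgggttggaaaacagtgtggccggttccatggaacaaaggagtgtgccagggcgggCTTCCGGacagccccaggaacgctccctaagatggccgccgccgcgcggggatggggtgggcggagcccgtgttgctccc

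Complex V had the highest median percentiles among the complexes, though not the highest share of strong Gfi1 peaks. Of its 16 structural genes, 10 had a high-confidence Gfi1 peak (62.5%, against 69.4% in complex I and 75% in complex II). An Lsd1 peak lay at 11 (68.8%) and both at 9. Over the 11637 genes with peaks the shares were 43.1% for Gfi1 and 48.6% for Lsd1. The median percentile was 90.5 ± 2.01 (SD, n = 2) for Gfi1 and 86.0 ± 0.184 for Lsd1. Atp5j stood at 98.6 and 94.5 for Gfi1 in tumors 39 and 41 and at 88.7 and 97.5 for Lsd1, and its peak also covered the start of Gabpa, which codes for the ETS factor named above, in all 4 libraries. Atp5b stood at 92.1, 99.4, 98.8 and 87.6 in the same order, but its Lsd1 peak of tumor 39 lay 538 bp from the nearest Atp5b TSS. Atp5o, the stalk subunit that confers oligomycin sensitivity, stood at 95.9 and 95.3 for Gfi1 and at 90.7 and 90.0 for Lsd1. The factors overlapped in Atp5j and Atp5b, whereas in Atp5o the Gfi1 values were higher without overlap.

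Atp5h and Atp5d were the genes of complex V that varied most. Atp5h, a peripheral stalk subunit, stood at 79.5 and 45.2 for Gfi1 in tumors 39 and 41 and at 80.4 and 85.5 for Lsd1. The difference of the means, -20.7 percentile points for Gfi1 minus Lsd1, was the most negative of the 101 genes and was smaller than the Gfi1 SD of 24.3 (n = 2). Atp5d, the delta subunit of F1, stood at 79.6 and 95.5 for Gfi1 and at 82.4 and 97.6 for Lsd1, higher in tumor 41 for both factors. Its peaks were the widest of all, at 39353, 19205, 30144 and 25068 bp in the order of the libraries, and covered a TSS of 2 or 3 other protein-coding genes. Their height and width are therefore those of a stretch with several genes.

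The 8 restricted isoforms had low values or none. Besides the 3 without a peak, 5 had a peak in every library, and 0 of the 8 had a high-confidence peak of either factor. Their median percentile was 58.5 ± 10.6 (SD, n = 2) for Gfi1 and 49.3 ± 1.18 for Lsd1. Cox4i2, known from lung, stood at 66.0 and 20.9 for Gfi1 in tumors 39 and 41 and at 22.5 and 47.0 for Lsd1, with SDs of 31.9 and 17.3 (n = 2), the widest of the 101 genes for both factors. Cox7a1, known from heart and skeletal muscle, stood at 44.8, 51.0, 48.5 and 50.1 in the same order. Cox8b, also of muscle, stood at 49.1, 34.3, 35.0 and 38.1.

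The ubiquitous counterparts Cox4i1, Cox7a2 and Cox8a stood higher in every library, at 91.8 to 98.6, 72.8 to 87.0 and 79.0 to 91.5. Cox6b2, known from testis, stood at 74.1, 55.5, 76.5 and 67.8, and Cox6b1, its counterpart, at 71.1, 73.6, 70.6 and 67.9, so that this pair overlapped. Ndufa4l2, which is induced in hypoxia, was the exception among the 8 in height and width. It stood at 88.6 and 68.4 for Gfi1 and at 94.8 and 76.6 for Lsd1, lower in tumor 41 for both factors, with peaks of 6485 to 15499 bp. The restricted isoforms held few CpGs, from 14 to 36 within 500 bp of the TSS.

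The 3 X-linked genes were low for their classes. Cox7b stood at 40.01 and 39.6 for Gfi1 in tumors 39 and 41 and at 32.1 and 29.4 for Lsd1, the lowest structural gene in every library and the lowest of the 101 genes for Gfi1 in tumor 39 and Lsd1 in tumor 41. Ndufa1 stood at 74.2, 53.3, 61.0 and 63.0, and Ndufb11 at 80.7, 48.0, 64.9 and 74.4. Their median percentiles, 61.1 ± 18.5 (SD, n = 2) for Gfi1 and 62.0 ± 1.43 for Lsd1, were like those of the X-linked protein-coding genes with a peak, at 58.0 ± 12.2 and 58.2 ± 3.72. Over the whole X chromosome, 25.8% of 948 protein-coding genes were bound in all 4 libraries, and 1.05% and 0.844% carried a high-confidence Gfi1 or Lsd1 peak. Of the 3 genes, 0 had either. The part of the X chromosome itself in these values was not tested.

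The factors were compared gene by gene in the 101 genes with peaks in all 4 libraries. Both Gfi1 percentiles were above both Lsd1 percentiles in 33 genes, against 16.5% of the 11637 protein-coding genes, and both Lsd1 percentiles were above in 8, against 15.4%. The values overlapped in 60. The median difference of the means was 2.55 percentile points toward Gfi1 over the 101 genes and -0.336 over the 11637. Of the 33 genes, 13 were among the 36 structural genes of complex I, where the reverse was seen in 2. In the other complexes Gfi1 was above in 2 of 4 genes (II), 3 of 9 (III), 4 of 11 (IV) and 7 of 16 (V).

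This surplus rests on the Gfi1 library of tumor 41. Within tumor 39, Gfi1 stood above Lsd1 in 64 of the 101 genes (63.4%), below the 70.9% of all 11637 genes. Within tumor 41 it did so in 55 genes (54.5%), above the 29.4% of all genes. Gfi1 was above Lsd1 in both tumors at 37 genes, against 20.1%, and Lsd1 above Gfi1 in both at 19, against 19.8%. Without the Gfi1 library of tumor 41, the single Gfi1 value was above both Lsd1 values in 57.4% of the 101 genes and 57.0% of all genes, and below both in 19.8% and 22.1%. Without the Gfi1 library of tumor 39 the shares were 47.5% against 23.2% above, and 32.7% against 55.0% below. With ranks taken among the 11637 promoters in place of the whole list, Gfi1 was higher without overlap in 29.7% of the 101 genes, against 22.0%, and Lsd1 in 6.93%, against 17.8%. The Gfi1 library of tumor 41 also had the fewest peaks of the 4. The study reports more mapped reads for it than for the other Gfi1 library. The part of its depth or quality in these shares was not tested.

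**Figure D4:**
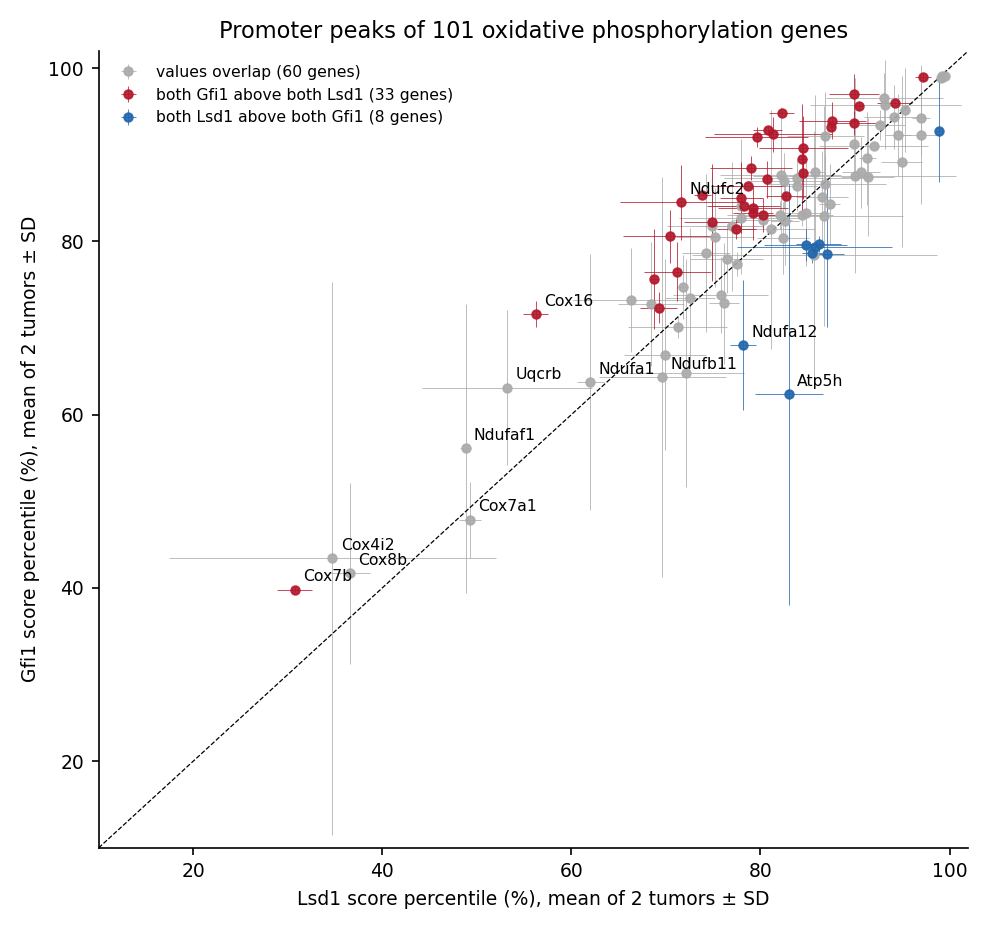
Each point is 1 of the 101 genes with a promoter peak in all 4 libraries, at its mean percentile (%) over the 2 tumors for Lsd1 (horizontal) and Gfi1 (vertical), with bars of 1 SD (n = 2) and the line of equal values. Red points (33 genes) have both Gfi1 values above both Lsd1 values, blue points (8 genes) the reverse, and in the 60 gray points the values overlap. Cox16 lies above the line with short bars, and the vertical bar of Atp5h spans an SD of 24.3.

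Between the tumors the percentiles of these genes moved less to one side than those of all genes. For Gfi1 43 of the 101 genes were higher in tumor 41, against 22.6% of the 11637 genes, and for Lsd1 50 were, against 66.3%. In 16 genes both factors were higher in tumor 41, against 10.3%, and in 24 both were higher in tumor 39, against 21.5%. The median Gfi1 percentile over all genes with a peak fell from 82.5 in tumor 39 to 77.4 in tumor 41, while that of the 101 was 84.6 and 84.4. The lists differ in length, so that a percentile in one is not the same height in the other. The median absolute difference between the tumors was 5.33 percentile points for Gfi1 and 3.76 for Lsd1. Atp5d, Ndufa4l2 and Cox15, described above, had the largest changes of one direction in both factors.

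The promoters of these genes shared features that the choice by symbol did not use. They held a median of 56 CpGs within 500 bp of the main TSS, against 43 over all protein-coding genes. When all genes were split into terciles by this count, at 19 and 61 CpGs, 5 of the 104 fell into the low tercile, 60 into the middle and 39 into the high. In the middle tercile a high-confidence Gfi1 peak lay at 46.7% of the oxidative phosphorylation genes, against 21.6% of all genes, and an Lsd1 peak at 33.3%, against 23.1%. In the high tercile the shares were 74.4% against 44.4% for Gfi1 and 71.8% against 51.0% for Lsd1. The low tercile held 0 high-confidence peaks at its 5 genes, where all genes of that tercile had shares of 2.95% for Gfi1 and 3.73% for Lsd1. These shares also count genes without a peak. In the middle tercile 63.5% of all genes had a peak in all 4 libraries, against 96.7% of the oxidative phosphorylation genes. In the high tercile the values were 86.3% and 100%. As counts, the middle tercile had 4602 genes with peaks in all 4 libraries, and 1568 with high-confidence Gfi1 and 1677 with Lsd1 peaks. The oxidative phosphorylation genes there had 58, 28 and 20. In the high tercile the counts were 6295, 3239 and 3721 over all genes and 39, 29 and 28 for these genes. The part of genes without a peak in these differences was not tested. Across the 101 genes the CpG count went with the mean percentile, with a Spearman correlation of 0.503 for Gfi1 and 0.545 for Lsd1, which describes genes of the same 4 libraries and carries no test.

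**Figure D5:**
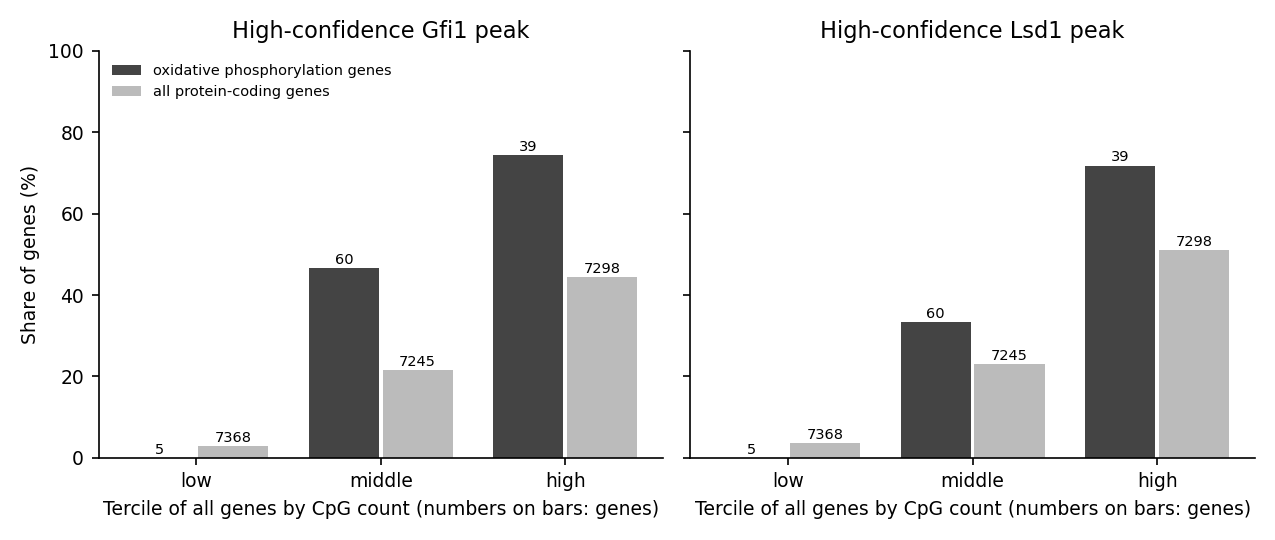
Bars give the share of genes (%) with a high-confidence Gfi1 (left) or Lsd1 (right) promoter peak in each tercile of all protein-coding genes by CpG count around the TSS, for oxidative phosphorylation genes (dark) and all genes (light), with the number of genes on each bar. In the high tercile the dark bars stand at 74.4% and 71.8% and the light bars at 44.4% and 51.0%. Genes without any peak are counted in both groups.

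Shared promoters were frequent. In 40 of the 104 genes (38.5%) a TSS of another protein-coding gene lay within 1000 bp, on either strand, against 14.5% of all protein-coding genes. At such promoters a peak cannot be assigned to one of the genes. High-confidence peaks lay at 24 of the 40 for Gfi1 and at 26 for Lsd1. Among the 64 genes without a shared promoter they lay at 33 and 22. The median percentiles were 85.5 ± 0.438 (SD, n = 2) and 85.0 ± 0.411 for Gfi1 and Lsd1 at shared promoters, and 83.0 ± 1.91 and 79.4 ± 0.707 at the others. Over all genes with a shared promoter, high-confidence peaks were found at 53.8% for Gfi1 and 56.3% for Lsd1.

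Motifs were searched by exact letters on both strands, from 250 bases before to 50 after the main TSS. The NRF1 half-site was found in 13 of the 104 promoters (12.5%), against 3.74% of all protein-coding genes, the ETS letters in 22 (21.2%), against 11.2%, and the YY1 letters ATGGCGG in 13 (12.5%), against 5.11%. The E-box CACGTG, which Myc can bind, was found in 8 (7.69%), against 7.71%. The Gfi1 letters AAATCA were found in 5 (4.81%), against 13.1%. Within 500 bp on either side they were found in 26.0%, against 36.4%. The 13 genes with the NRF1 half-site had median percentiles of 91.0 for Gfi1 and 84.5 for Lsd1, over the 12 with peaks, and the others had 83.0 and 82.1. High-confidence Gfi1 peaks lay at 11 of the 13 and Lsd1 peaks at 7, against 57 and 48 of all 104 genes. The 13 genes with the YY1 letters had medians of 78.7 for Gfi1 and 83.9 for Lsd1, against 84.2 and 82.1 in the others, with high-confidence peaks at 5 and 7. The 22 with the ETS letters had 84.1 and 84.5, against 84.0 and 81.3, with high-confidence peaks at 11 and 13. The 8 with the E-box had 90.0 and 87.6, against 83.3 and 82.1, with high-confidence peaks at 7 and 6. The 5 with the Gfi1 letters had 86.4 and 83.9, against 83.6 and 82.2, with high-confidence peaks at 4 and 3. No common direction was seen over the 5 motifs for Gfi1, while for Lsd1 the median was higher with the letters than without for all 5. These differences were not tested. The promoters differ in CpG content from those of all genes, and its part in these shares was not tested. A match of letters says only that they are there.

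Other genes of mitochondrial metabolism, listed by role, also had peaks at nearly all promoters. All 14 TCA cycle enzymes had a peak in all 4 libraries. High-confidence Gfi1 peaks lay at 7 of them (50%) and Lsd1 peaks at 6 (42.9%). All 29 assembly factors outside the rule also had a peak in all 4 libraries, with 15 (51.7%) and 14 (48.3%). Over the 11637 protein-coding genes with a peak in all 4 libraries, these shares were 43.1% and 48.6%. Among 15 regulators of mitochondrial genes and factors of mitochondrial DNA expression, 14 had peaks in all 4 libraries. A high-confidence Gfi1 peak lay at 11 of the 15 (73.3%), and an Lsd1 peak at the same number. Their median percentiles were 94.4 ± 2.16 (SD, n = 2) for Gfi1 and 93.5 ± 2.99 for Lsd1. These were above the 84.5 ± 0.141 and 81.7 ± 0.624 of the oxidative phosphorylation genes. The regulator gene without a peak was Ppargc1a, which codes for the coactivator PGC-1alpha. Its relative Ppargc1b stood at 98.6 and 97.7 for Gfi1 in tumors 39 and 41 and at 98.9 and 99.2 for Lsd1. Nrf1 itself stood at 94.5, 86.7, 86.1 and 91.7 in the same order. Tfam, the packaging factor of mitochondrial DNA, stood at 89.0, 78.1, 76.1 and 85.8.

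The 2 families most like these genes in being made in nearly every cell were read beside them. All 78 mitochondrial ribosomal genes had peaks in all 4 libraries, with high-confidence peaks at 32 for Gfi1 and 32 for Lsd1, and both Gfi1 values were above both Lsd1 values in 26, against 2 in the reverse. Of the 82 cytosolic ribosomal genes 78 had peaks in all 4 libraries, with high-confidence peaks at 65 and 58. Their median percentiles were 91.6 ± 1.22 (SD, n = 2) for Gfi1 and 88.7 ± 0.688 for Lsd1, above those of the oxidative phosphorylation genes by more than the sum of the SDs, and their median widths ran from 3101 to 4050 bp.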

How the data were processed

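Gfi1 and Lsd1 ChIP-seq libraries of MG tumors 39 and 41 were used. Per the labels and the study's methods, the authors aligned reads to mm10 with BWA 0.6.2, checked reads with FastQC, merged files with Picard, removed duplicate reads and called peaks in each library with MACS, whose version is not given in the sources used here, against input chromatin. The deposited lists give each peak a position and the authors' score, of which only the rank within a list was used, because its definition is not given. It takes the place of the enrichment by which the study ranked peaks. The lists hold no read counts or depth.

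TSSs came from GENCODE release M21, where the authors used M9. The percentile is the mean rank of the score, with ties sharing a rank. Shared promoters, CpGs and motifs were read from the RefSeq GRCm38.p6 genome and the same annotation. Steps used Python 3.11.15, numpy 2.4.6 and scipy 1.17.1. The search for promoter peaks was tested on simulated data, where 2000 of 2000 planted peaks were found, and a direct search over 200 genes gave 0 disagreements.

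The genes and lists were chosen with earlier results of these data known. Genes named with values were the 4 Sdh genes, Cycs and Cyc1, the 3 structural genes with the highest mean percentile in complexes I, III, IV and V, genes without a peak, the restricted isoforms, the 3 widest, the 2 largest and 2 smallest differences between factors, and the 3 largest differences between tumors of one direction. Others are named as chosen after their values were seen, as counterparts, as X-linked, or for a sequence. The alternatives varied the window, the TSSs, the peak read, the score cutoff, the genes counted and the libraries used. Those on the comparison of the factors gene by gene, within tumors and by ranks among promoters were chosen after seeing the data. The labels call the tumors biological replicates, and both factors come from the same tumors.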

Additional observations from a re-analysis of the deposited data

How the results depend on the processing

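Leaving out each library in turn left 101 genes with a peak in all remaining libraries and shares of 97.1% to 97.1% for both factors. High-confidence counts ran from 57 to 69 for Gfi1 and from 48 to 60 for Lsd1, median percentiles from 84.4 to 84.6 and from 81.2 to 82.1, and median widths from 1941 to 2142 bp and from 2185 to 2511 bp. The count of genes with Gfi1 above Lsd1 without overlap ran from 42 to 58 and the reverse from 13 to 33, since fewer values must be separated. The Gfi1 share of 97.1% became 96.6% within 500 bp, 96.2% where the peak had to cover the TSS and 95.7% with the outermost 5′ end alone, where the Lsd1 share was 96.2%. With structural and cytochrome c genes alone both shares were 100%, the Gfi1 percentile 85.4 and Lsd1 above Gfi1 in 4 genes. Without shared promoters 61 genes had peaks in all 4 libraries, both shares were 95.3%, high-confidence counts 33 and 22, percentiles 83.0 and 79.4, and Lsd1 stood above Gfi1 in 2. The Gfi1 percentile was 84.7 within 2000 bp, 83.5 with the outermost 5′ end and 84.3 with the nearest peak.

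The score cutoff moved the counts most. With the upper 40% both shares were 90.4%, high-confidence counts 90 and 93, and the Gfi1 percentile 85.3. With the upper 10% the shares were 28.4% and 20.7%, 10 genes kept peaks in all 4 libraries, high-confidence counts were 21 and 16, percentiles 94.4 and 95.3, widths 3031 and 4281.5 bp, and Gfi1 stood above Lsd1 in 3 genes and the reverse in 0. With the factors paired as a block within each tumor, Gfi1 was above Lsd1 in both tumors at 37 genes and Lsd1 above Gfi1 at 19, a weaker condition than separation of all 4 values. The other results are counts or medians for each factor with no test, to which pairing does not apply. In all, 117 values stayed within the tumor spread or 1.5 times the count and 41 moved. Neither depth nor precision per peak is known from the lists.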
